A study of Mus musculus with 18 samples.

Results

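The proteins of the cytosolic ribosome were followed through 43 of their genes in mouse cerebellum, 22 for the large (60S) and 21 for the small (40S) subunit. A gene was taken when its whole symbol was Rpl or Rps with a number (with a final a, a1 or x where the name has it), or Rplp0, Rplp1, Rplp2 or Rpsa. S6 kinases, pseudogenes and symbols ending in l were left out. Where several probe sets carried a gene's symbol alone, the one brightest on average across the 18 arrays was read. The 43 are part of 18193 genes tested, and a RefSeq table lists 77 protein-coding mouse genes with such symbols. Another 27 ribosomal protein symbols, among them Rplp1 and Rpl5, occur only on probe sets that list several symbols, and these probe sets are described separately.

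Gene expression was measured in cerebellum of C57BL/6 mice with Affymetrix arrays in 6 groups of 3. Homozygous MPI 118Q/118Q knock-in mice, homozygous Sca6 CtmKO/CtmKO mice and homozygous MPI 11Q/11Q knock-in mice were each set against wild-type littermates of their own line, called the 118Q, Ctm and 11Q lines here. The series concerns Cacna1a, which encodes the calcium channel Cav2.1, and spinocerebellar ataxia type 6. The homozygous 118Q and CtmKO animals were 6 weeks old according to the labels, which give no age for the 11Q mice or for any wild-type group. The labels do not spell out MPI or Ctm, name no driver that would restrict an allele to a cell type, and do not say whether RNA of several animals was pooled. They do not say more about replicates than that they are separate samples, so p-values measure the spread between these samples, which may be technical. No Cacna1a probe set passed the test in any line (adjusted p from 0.19 to 0.95, limma), and the positions of these probe sets in the gene were not analysed here. The granule cell marker Gabra6 (mean level 10.42) and the Purkinje cell markers Calb1 (10.56) and Pcp2 (10.63) were all bright.

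Ribosomes translate every cytosolic mRNA. The small subunit binds the mRNA and reads its codons, and the large subunit joins the amino acids and lets the new chain out through a tunnel. Their proteins are made in matched amounts, assembled with ribosomal RNA in the nucleolus, and encoded by mRNAs that mostly begin with a C and a run of pyrimidines, the 5′ terminal oligopyrimidine (TOP) motif. The kinase mTOR and the RNA-binding protein Larp1 control translation of TOP mRNAs. In the cerebellum, the large Purkinje cells are rich in ribosomes, whereas the far more numerous granule cells are small.

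The sequence around the annotated start shows which genes carry a TOP motif close to that start, and it is given for the genes that moved most in a line. Sequences are from the RefSeq promoter table (build GRCm38.p6), which held 38 of the 43 genes. Each runs 5′ to 3′ on the gene's strand from 25 bases before the start to 15 bases from it onward, and capitals mark a TOP match: a C within 5 bases of the start followed by at least 4 C or T. The first 3 lines are genes that rose in the 118Q knock-in and hold a match, the next 4 are genes that rose there without a match, and the last 2 are the genes with the lowest changes in the Ctm knockout.
Rps18, chr17:33955651-33955690, minus strand: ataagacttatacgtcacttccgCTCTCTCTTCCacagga
Rps27, chr3:90213634-90213673, minus strand: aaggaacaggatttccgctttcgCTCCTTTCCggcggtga
Rps2, chr17:24720038-24720077, plus strand: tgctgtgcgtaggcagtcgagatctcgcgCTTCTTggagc
Rpl41, chr10:128549154-128549193, minus strand: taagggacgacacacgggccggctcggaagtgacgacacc
Rpl11, chr4:136053379-136053418, minus strand: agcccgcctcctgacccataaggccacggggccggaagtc
Rps15, chr10:80292406-80292445, plus strand: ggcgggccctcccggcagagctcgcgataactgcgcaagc
Rpl37a, chr1:72711235-72711274, plus strand: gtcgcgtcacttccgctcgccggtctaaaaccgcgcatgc
Rpl14, chr9:120571492-120571531, plus strand: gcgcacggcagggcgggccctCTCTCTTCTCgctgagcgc
Rps6, chr4:86857353-86857392, minus strand: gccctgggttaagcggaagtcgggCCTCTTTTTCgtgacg

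A TOP match at any annotated start was present in 18 of the 38 genes (47.4%), against 5715 of 27018 genes in the table (21.2%). Counted from a C within 5 bases of the start, the longest match among the printed windows was the 11 bases of Rps18. In Rpl14 the pyrimidine run continues before the marked match, so its capitals show only part of it. In the 118Q line, 3 of the 18 genes with a match rose and their median change was 0.32, and 5 of the 20 without a match rose with a median of 0.31. Over the whole 300 bases of the promoter entries and on both strands, CCGGAAG, a sequence bound by ETS factors, was found in 19 of the 38 genes and in 9.9% of all. AAGATGG, which YY1 can bind, was found in 18.4% and 7.3%, and the TATA sequence TATAAA in 13.2% and 15.7%. These 3 further motifs were chosen after other results were known. With CCGGAAG, 4 of 19 genes rose in the 118Q line (median change 0.36), and without it 4 of 19 (median 0.30). A match is a description of these letters only. The TOP search reached only 5 bases to either side of the annotated start. A gene without a match can therefore hold such a run elsewhere in its window, as Rpl11 and Rps15 do. How exact the annotated starts are was not tested.

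Values are log2 levels per probe set from the RMA method, and a change is the mutant mean minus the mean of its own wild types on that scale. Levels of different probe sets are not comparable with each other. Of the 43 probe sets, 35 had a mean level of at least 5 (5.79 for Rpl37 to 10.88 for Rps29). The other 8, those of Rpl12, Rpl14, Rpl27a, Rpl39, Rps6, Rps16, Rps25 and Rps27, were between 0.43 and 4.82, where the size of a change depends on the background step. Rps16, at 0.43, gives little more than background here.

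In the 118Q knock-in, ribosomal protein genes were higher as a group, and 8 of 43 passed the test. The small-subunit genes Rps18, Rps27, Rps19, Rps15 and Rps2 rose, as did the large-subunit genes Rpl41, Rpl11 and Rpl37a, by 1.34-fold to 1.55-fold. The threshold was an adjusted p of 0.05 in limma over all genes, which 1.54% of the 18193 genes passed, 0.808% upward and 0.731% downward. No ribosomal protein gene fell in limma. At an unadjusted p below 0.05, 29 were higher (10.5% of all genes) and 0 lower (5.69%). All 43 changes were above 0, as were 58.7% of all genes. The median change was 0.30 (1.23-fold), against 0.04 over all genes, and the range ran from 0.01 for Rps29 to 0.63 for Rps18. A largely shared sign also occurred between 2 wild-type groups. Of the 43 genes, 38 were higher in the 118Q than in the 11Q wild types, with a median difference of 0.09 against 0.02 over all genes. None of them passed, and the share of all genes above 0 was not computed there. In 29 genes, all 3 knock-in arrays lay above all 3 wild types, which held for 12% of all genes, and in 0 they lay all below (6.11%). In such whole-tissue samples a different number of cells of a type and a different amount of RNA per cell cannot be told apart. The count rested on single arrays, and so did that of all genes. It was 0 without wild-type array 3 (0.011% of all genes passed) or knock-in array 2 (0.0385%). It was 1 without knock-in array 3 (0.0165%) and 2 without wild-type array 1 (0.374%) or 2 (1.32%). Without knock-in array 1 it was 25 (5.17%). The median stayed between 0.28 and 0.42 in these 6 fits.

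**Figure D1:**
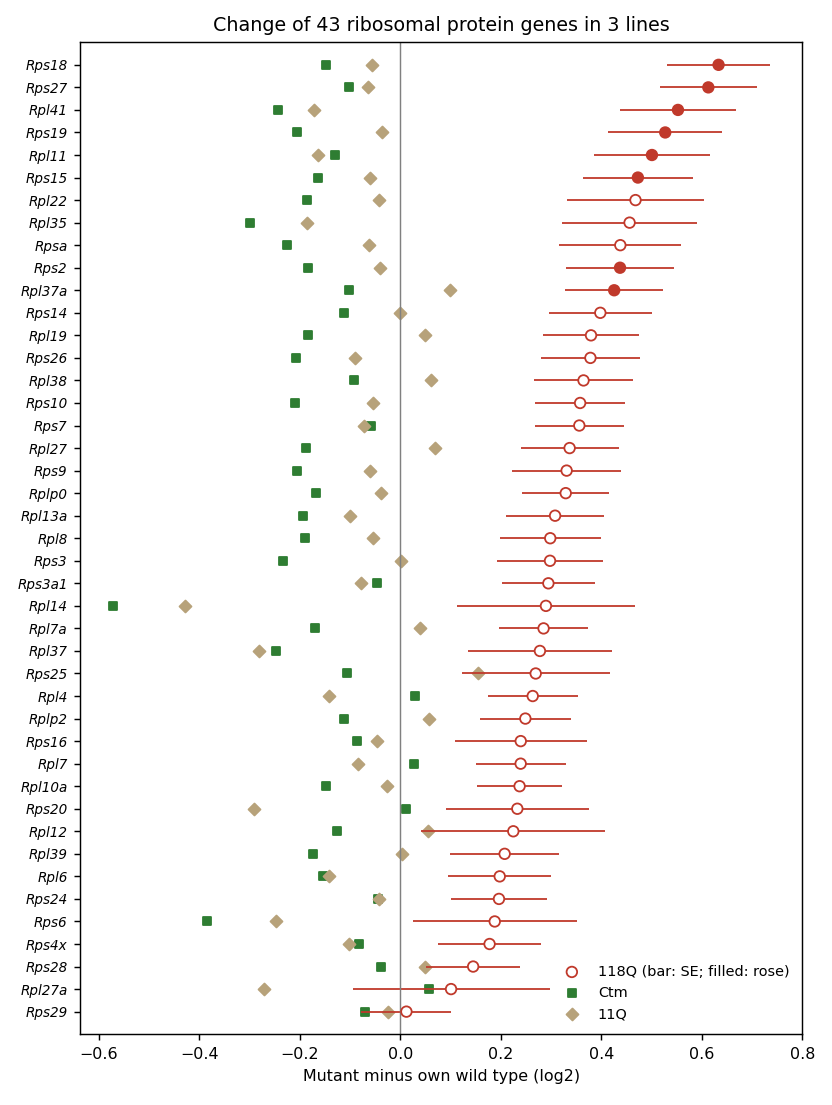
Change of each of the 43 genes, mutant minus own wild type (log2, horizontal axis), ordered by the 118Q change. Circles are the 118Q line with the standard error as a bar, filled where the gene rose (8 genes). Squares are the Ctm line and diamonds the 11Q line, in which no gene passed. All circles lie to the right of 0, and 39 squares and 31 diamonds to the left.

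Rps18 encodes a protein of the head of the small subunit. Its level was 8.44, 8.60 and 8.58 in the 118Q wild types and 8.95, 9.32 and 9.24 in the knock-ins. The groups do not overlap, and knock-in array 1 is the lowest of its group. The change was 0.63 (SE 0.10, adjusted p = 0.011). In the Ctm and 11Q lines Rps18 lay between 8.23 and 8.66, below every 118Q knock-in array.

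Rps27, a zinc-finger protein of the small subunit, was read by a dim probe set. It measured 3.68, 3.68 and 3.61 in wild types and 4.33, 4.34 and 4.15 in knock-ins. Here knock-in arrays 1 and 2 were alike and array 3 was the lowest, and the gap between the groups (0.46) was the widest of the 43 genes. The change was 0.61 (SE 0.10, adjusted p = 0.010). Rps27 kept its call in 16 of 19 alternative fits and Rps18 in 15 of 20, more than the other 6 genes, which kept it in 7 to 11 of 20.

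Rps19 is needed for the maturation of 18S ribosomal RNA and is the gene most often mutated in Diamond-Blackfan anaemia. Its levels were 8.26, 8.33 and 8.41 in wild types and 8.56, 9.10 and 8.93 in knock-ins, a change of 0.53 (SE 0.11, adjusted p = 0.031). Rps15, also in the head of the small subunit and needed for export of its precursor from the nucleus, measured 9.20, 9.22 and 9.005 in wild types. Its knock-in values were 9.36, 9.76 and 9.72, and the change was 0.47 (SE 0.11, adjusted p = 0.038). In both genes knock-in array 1 lay close above the highest wild type and the other knock-ins were far above it. Rps2, which lies where mRNA enters the small subunit, measured 8.99, 8.88 and 8.99 in wild types and 9.18, 9.45 and 9.53 in knock-ins. Its change of 0.44 (SE 0.11, adjusted p = 0.049) passed by the smallest margin.

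Among the large-subunit genes, Rpl41 encodes a very short basic peptide at the interface of the subunits. It measured 9.87, 9.87 and 9.92 in wild types and 10.14, 10.61 and 10.57 in knock-ins, a change of 0.55 (SE 0.12, adjusted p = 0.029). Rpl11 carries 5S ribosomal RNA into the large subunit together with Rpl5 and can bind Mdm2, the inhibitor of p53. Its levels were 9.05, 9.18 and 9.12 in wild types and 9.33, 9.87 and 9.67 in knock-ins, a change of 0.50 (SE 0.12, adjusted p = 0.038). Rpl37a, a zinc-binding protein of the large subunit, measured 9.81, 9.74 and 9.62 in wild types and 9.94, 10.27 and 10.24 in knock-ins. Its change was 0.43 (SE 0.10, adjusted p = 0.037). The groups overlap in none of these 3 genes, and array 1 is the lowest knock-in in each.

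**Figure D2:**
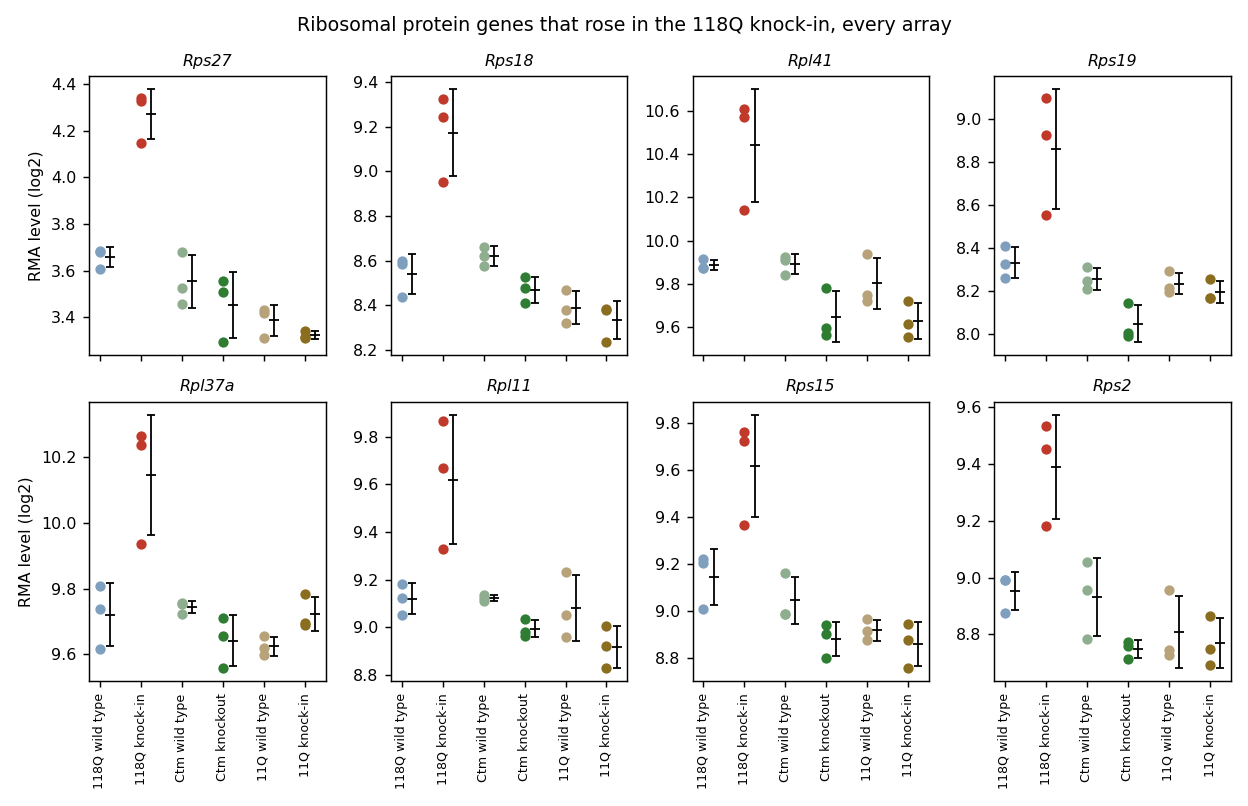
RMA level (log2, vertical axis, a separate scale in each panel) of the 8 genes that rose in the 118Q knock-in, in every array of the 6 groups. Points are arrays, and the bars beside them are the group mean with its SD (n = 3). In each panel the 3 knock-in arrays of the 118Q line lie above their wild types, and in Rps27 by the widest gap.

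Another 11 genes had an adjusted p between 0.05 and 0.10 in the 118Q line, so the threshold divides a continuous range. Just outside it were Rps7 (0.36, adjusted p = 0.050), Rpl19 (0.38, adjusted p = 0.052) and Rps10 (0.36, adjusted p = 0.053). Of 21 small-subunit genes 5 rose, with a median change of 0.33 over the 21, and of 22 large-subunit genes 3 rose, with a median of 0.29. The difference between the subunits was not tested. The 35 brighter genes had a median change of 0.33, with 7 of them called. At the low end, Rps29 measured 10.67, 10.90 and 10.92 in wild types and 10.81, 10.84 and 10.87 in knock-ins, so the knock-ins lay inside the wild-type range. Its change of 0.01 turned below 0 when arrays were centred on their median gene (-0.06), on the median of the brighter genes (-0.04), and without wild-type array 1 (-0.07) or knock-in array 3 (-0.0033). The change of Rpl27a was 0.10 (SE 0.20, adjusted p = 0.86), and it was below 0 without wild-type array 1 (-0.04). Rps28 changed by 0.14 (SE 0.09, adjusted p = 0.48). The other probe sets of Rps29, at mean levels of 10.58 and 10.25, gave 0.39 and 0.22. Those of Rps28, at 9.86 and 9.265, gave 0.41 and 0.27. The low values of Rps29 and Rps28 thus belong to the probe sets chosen for them.

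The genes of special role that did not pass in the 118Q line had positive values too. Rplp0 and Rplp2 belong to the stalk that recruits elongation factors. Rplp0 measured 8.93, 9.06 and 8.92 in wild types and 9.20, 9.33 and 9.36 in knock-ins, without overlap (0.33, SE 0.09, adjusted p = 0.061), and Rplp2 changed by 0.25 (SE 0.09, adjusted p = 0.17). Rpsa, which also occurs as a laminin receptor, changed by 0.44 (SE 0.12, adjusted p = 0.075). Rps6, the ribosomal protein phosphorylated downstream of mTOR, changed by 0.19 (SE 0.16, adjusted p = 0.63), and its knock-in arrays (4.55, 5.27 and 5.13) spanned its wild types (4.74, 4.72 and 4.93). Of the genes linked to Diamond-Blackfan anaemia other than Rps19, Rps26 changed by 0.38 (adjusted p = 0.059) and Rps24 by 0.20 (adjusted p = 0.32). Near the exit tunnel, Rpl22 changed by 0.47 (adjusted p = 0.086), Rpl35 by 0.46 (adjusted p = 0.092), Rpl4 by 0.26 (adjusted p = 0.14) and Rpl39 by 0.21 (adjusted p = 0.36). Rps3, at the mRNA entry, changed by 0.30 (adjusted p = 0.16), and Rpl8, close to the peptidyl transferase centre, by 0.30 (adjusted p = 0.14). Rpl38, known for its part in Hox mRNA translation, changed by 0.36 (adjusted p = 0.067), Rpl13a, of the interferon-activated GAIT complex, by 0.31 (adjusted p = 0.12), and the X-linked Rps4x by 0.18 (adjusted p = 0.42).

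The 3 knock-in arrays of the 118Q line did not share 1 level. Averaged over the 43 genes as the deviation from each gene's mean over 18 arrays, they were at 0.17, 0.45 and 0.42, the 3 highest of all arrays. The other 15 arrays lay between -0.19 and 0.07. The SD between arrays of a group, pooled over the 6 groups, was 0.08. It was 0.156 within the 118Q knock-ins and 0.0276 to 0.0791 within the other groups. Arrays 2 and 3 exceeded array 1 in 41 genes and exceeded every 118Q wild type in 40, whereas array 1 exceeded every wild type in 29. In 21 genes all 3 knock-in arrays lay above all other 15 arrays. The shares of all genes for these counts were not computed, so the counts describe the 43 genes only.

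**Figure D3:**
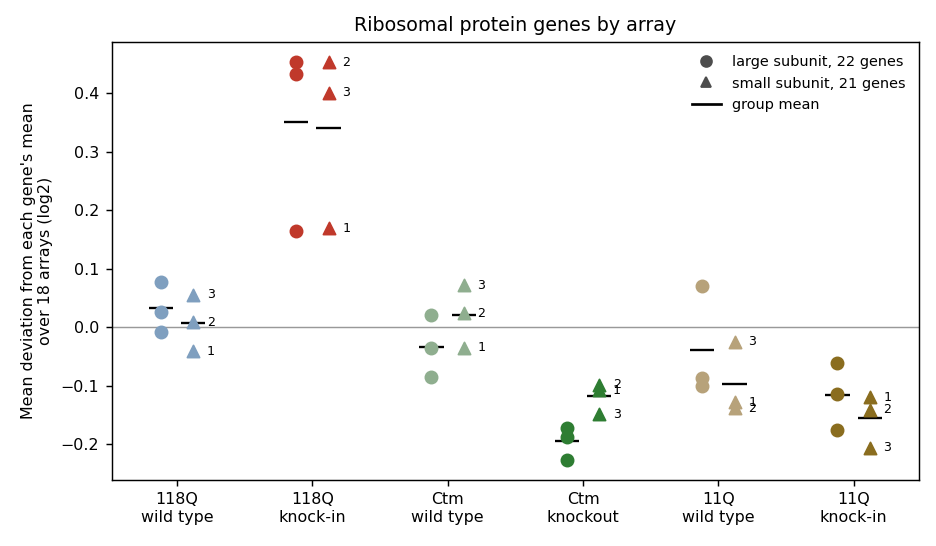
Mean deviation of the large-subunit genes (circles, 22) and small-subunit genes (triangles, 21) from each gene's mean over 18 arrays (log2, vertical axis), by array and group, with the replicate number beside the triangles and the group mean as a bar. The 118Q knock-ins average 0.35 for the large and 0.34 for the small subunit, and their arrays 2 and 3 stand highest.

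Other measures also differed between the 118Q groups. The mean level of 12 Purkinje cell markers, as a deviation from their means, was -0.10, -0.75 and -0.52 in knock-in arrays 1, 2 and 3, and between 0.06 and 0.22 in their wild types. Of these 12 markers 5 fell in the 118Q line (Stk17b, Slc1a6, Dner, Car8 and Calb1), with a list median of -0.70, whereas Pcp2 changed by 0.16 (adjusted p = 0.49). Of 13 microglia markers 4 rose (Trem2, Tyrobp, Cd68 and Laptm5), with a median of 0.55, and their mean deviation was 0.67, 0.33 and 0.52 in knock-in arrays 1, 2 and 3 against -0.19 to 0.14 in wild types. Knock-in array 1, the lowest for the ribosomal protein genes, was thus the highest for microglia markers and the nearest to wild type for Purkinje cell markers. Among 9 interneuron markers 1 fell (median -0.47), and among 13 of endothelial cells and pericytes 2 fell (median -0.49). In knock-in arrays 1, 2 and 3 the interneuron markers had mean deviations of -0.08, -0.74 and -0.53. Those of endothelial cells and pericytes had -0.10, -0.57 and -0.49, so array 1 was nearest to wild type in these lists too. None of 12 granule cell markers passed (1 higher and 0 lower at an unadjusted p below 0.05 in limma), with a median of 0.03. RNA integrity was read from the control probe sets for Gapdh and beta-actin, as the signal at the 3′ end minus that at the 5′ end, which grows as RNA degrades. It was 0.45 ± 0.03 (SD, n = 3) in the knock-ins and 0.55 ± 0.06 (SD, n = 3) in their wild types. The groups did not overlap (two-sided exact permutation p = 0.10, the smallest that 3 against 3 arrays can give). With this difference as a covariate the median change was 0.31, and 2 ribosomal protein genes rose, while 0.203% of all genes passed. The part of cell markers in the result was not tested.

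In the Ctm knockout no ribosomal protein gene passed the test in limma, and most values lay slightly below the wild types. Over all genes, 0.835% rose and 0.0934% fell. At an unadjusted p below 0.05, 7 of the 43 were lower and 0 higher (7.29% and 4.72% of all genes). The change was below 0 in 39 genes, with a median of -0.15. The median of all genes was also below 0, at -0.06, and 35.6% of all genes were above 0. In 25 genes all 3 knockout arrays lay below all 3 wild types, which held for 15.1% of all genes, and in 0 they lay all above (6.19%). When each array was centred on its median gene the median change of the 43 was -0.07 and 9 were above 0. Of 13 microglia markers none passed in the Ctm line (1 higher and 3 lower at an unadjusted p below 0.05 in limma). Their median was -0.26, and their mean deviation was -0.21 to -0.09 in knockouts and -0.03 to 0.08 in wild types. Of 10 markers of meninges and fibroblasts none passed (0 higher and 4 lower), with a median of -0.31, and their mean deviation was -0.46 to -0.17 in knockouts and -0.24 to 0.29 in wild types. The part of these cells in the result was not tested.

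The lowest Ctm values were those of Rpl14, an RNA-binding protein of the large subunit, and Rps6, both read by dim probe sets. Rpl14 measured 2.22, 2.05 and 2.54 in wild types and 1.78, 1.56 and 1.76 in knockouts, without overlap (-0.57, SE 0.18, adjusted p = 0.15). In Rps6 the levels were 4.54, 4.57 and 4.63 in wild types and 4.17, 4.34 and 4.06 in knockouts (-0.39, SE 0.16, adjusted p = 0.34). Of the brighter genes, Rpl35 was at 8.69, 8.69 and 8.65 in wild types and 8.36, 8.43 and 8.34 in knockouts (-0.30, SE 0.13, adjusted p = 0.39). Rps10, of the mRNA entry side, had a change of -0.21 (adjusted p = 0.35) and Rps3 of -0.23 (adjusted p = 0.39), both without overlap. The 3 highest values were 0.06 for Rpl27a, 0.03 for Rpl4 and 0.03 for Rpl7, and each turned below 0 in some alternatives.

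In the 11Q knock-in no gene passed either, among the 43 or among all 18193 (0%), in limma. At an unadjusted p below 0.05, 1 ribosomal protein gene was lower and 0 higher (3.22% and 2.27% of all genes). The median change was -0.06 against -0.02 over all genes, 12 genes were above 0 (45.7% of all genes) and 31 below. With each array centred on its median gene the median turned to 0.0035, against 0.04 over all genes, and 23 genes were above 0. Knock-in arrays lay all above their wild types in 2 genes (4.14% of all genes), Rpl37a and Rplp2, and all below in 2 (6.12%), Rpl4 and Rps20. The lowest changes were those of Rpl14 (-0.43, SE 0.18, adjusted p = 0.88), Rps20 (-0.29, SE 0.14, adjusted p = 0.88) and Rpl37 (-0.28, SE 0.14, adjusted p = 0.88). Rps20 measured 8.90, 8.78 and 9.19 in wild types and 8.71, 8.70 and 8.58 in knock-ins, so wild-type array 3 stands apart from the others of its group. Rps6 had a change of -0.25 (SE 0.16, adjusted p = 0.88) and Rpl4 of -0.14 (SE 0.09, adjusted p = 0.88). The highest were Rps25 (0.16, SE 0.15), Rpl37a (0.10, SE 0.10) and Rpl27 (0.07, SE 0.10). The value of Rpl27 turned below 0 when its probe sets were averaged (-0.17) and with a choroid plexus covariate (-0.01). None of 10 choroid plexus markers passed (0 higher and 7 lower at an unadjusted p below 0.05 in limma), with a median of -2.06. Their mean deviation was 0.91 to 1.37 in the wild types and -2.18 to 0.72 in the knock-ins. With it as a covariate the median change of the ribosomal protein genes was -0.11, and 6 were above 0.

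**Figure D4:**
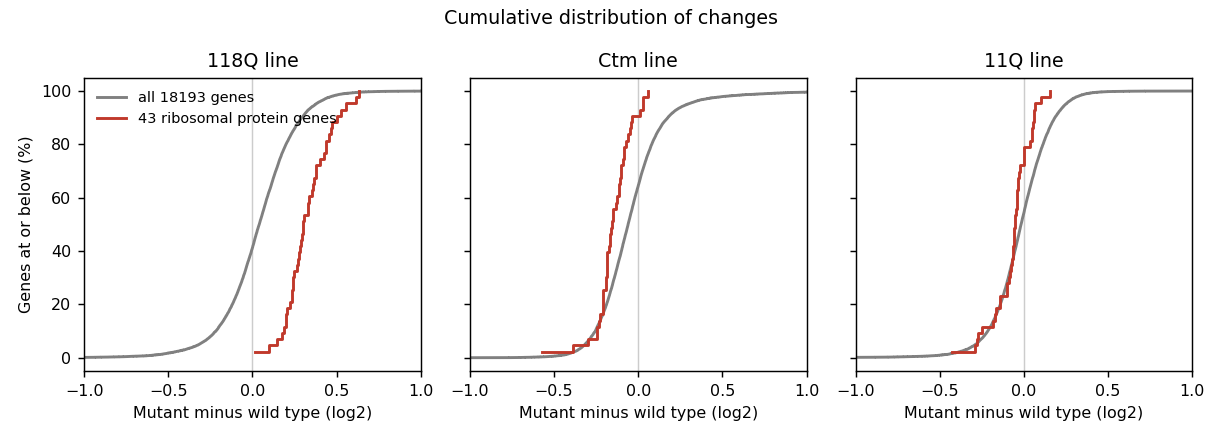
Share of genes at or below each change (percent, vertical axis) against the change, mutant minus wild type (log2, horizontal axis), for the 43 genes and all 18193 genes in each line. The curve of the 43 lies to the right of all genes in the 118Q line (medians 0.30 and 0.04) and a little to the left in the Ctm line (-0.15 and -0.06).

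Whether a change differs between lines was tested directly. The 118Q change exceeded the Ctm change in 15 of 43 genes, against 1.84% of all genes in that direction, 1.09% in the other and 2.93% in either. In 0 genes was it smaller in limma. At an unadjusted p below 0.05, 32 were higher (13.2% of all genes) and 0 lower (5.79%). The 15 were Rps18, Rps27, Rpl41, Rps19, Rps10, Rps26, Rpl19, Rps15, Rps2, Rplp0, Rpl35, Rpsa, Rpl11, Rpl37a and Rpl27, which hold all 8 that rose in the 118Q line. The 3 smallest p-values were those of Rps18 (difference 0.78, SE 0.14, adjusted p = 0.015), Rps27 (0.71, SE 0.14, adjusted p = 0.017) and Rpl41 (0.80, SE 0.16, adjusted p = 0.022). The difference was above 0 in all 43 genes (63.0% of all genes), with a median of 0.50 against 0.09 over all genes. These 2 lines share no control arrays. The count was 0 without Ctm wild-type array 3 (0.132% of all genes passed), and 27 without 118Q knock-in array 1 (5.61%). It was 2 without 118Q knock-in array 2 or 3, 118Q wild-type array 3 or knockout array 1. Without 118Q wild-type array 1 or knockout array 2 or 3 it was 3. It was 6 without Ctm wild-type array 2, 9 without 118Q wild-type array 2 and 15 without Ctm wild-type array 1. In the fits that gave 2 to 15, 0.412% to 3.93% of all genes passed. Centring each array on its median gene moved the median of all genes from 0.09 to -0.06. The count was then 2 (2.57% of all genes passed), and 41 of 43 differences were above 0.

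The 118Q and 11Q changes did not differ past the threshold in any of all genes (0%). At an unadjusted p below 0.05 in limma, 29 ribosomal protein genes were higher (7.36% of all genes) and 0 lower (2.97%). All 43 differences were above 0 (58.0% of all genes), with a median of 0.37 against 0.05, led by Rps27 (0.68, SE 0.14, adjusted p = 0.18), Rps18 (0.69, SE 0.14, adjusted p = 0.19) and Rpl41 (0.72, SE 0.16, adjusted p = 0.20). Without 118Q knock-in array 1, 9 ribosomal protein genes passed (0.5% of all genes). Between the Ctm and 11Q changes no gene passed (0%), and no ribosomal protein gene had an unadjusted p below 0.05 in limma (4.39% of all genes were higher and 4.09% lower). The median difference was -0.12 against -0.04, 9 differences were above 0 (41.6% of all genes), and the smallest p-values were those of Rpl27 (-0.26, SE 0.14), Rpl19 (-0.23, SE 0.13) and Rpl7a (-0.21, SE 0.12).

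A few genes differed between the wild types of the lines, a comparison added after values were seen. Such differences were not particular to this family: 16.2% of all genes passed when Ctm wild types were set against the others. Between the 118Q and 11Q wild types no gene passed (0%). Ctm wild types were set against the mean of both other wild-type groups: 4 of the 43 were higher (7.32% of all genes) and 1 lower (8.84%). The lower was Rpl27a, a large-subunit gene, with a difference of -1.93 (SE 0.17, adjusted p = 5.4e-06). All 6 Ctm arrays, knockouts included, measured 1.89 to 2.43 and the 12 arrays of the knock-in lines 3.74 to 4.72. The higher were Rps10 (0.48, SE 0.08, adjusted p = 0.00059), Rpl37 (0.71, SE 0.13, adjusted p = 0.0011), Rpl27 (0.28, adjusted p = 0.031) and Rps29 (0.23, adjusted p = 0.049). For Rps29 and, downward, for Rpl10a, the 6 Ctm arrays also lay apart from the 12 others. The share of all genes with such a separation was not computed. Rps10 measured 10.13, 10.06 and 10.14 in Ctm wild types, above its 6 other wild types (9.56 to 9.72) and within reach of the 118Q knock-ins (9.85, 10.12 and 10.06). Set against the same 6 wild types, the Ctm knockouts gave 2 higher (3.15% of all genes) and 4 lower (6.57%), and the change of Rps10 turned to 0.27 (adjusted p = 0.037). Line, litter and any difference in handling cannot be told apart here.

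**Figure D5:**
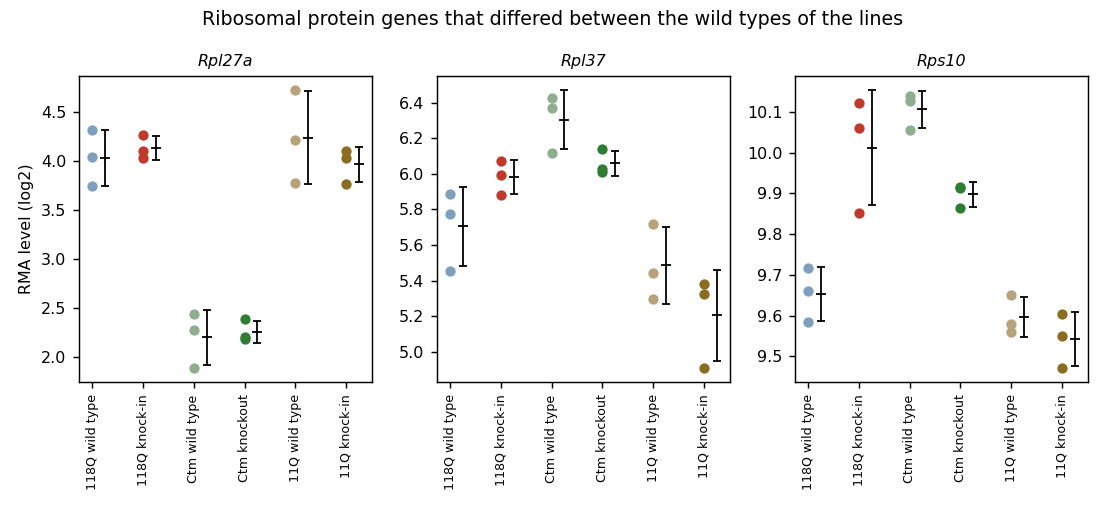
RMA level (log2, vertical axis, a separate scale in each panel) of Rpl27a, Rpl37 and Rps10 in every array, with the group mean and SD (n = 3) beside the points. The 6 Ctm arrays of Rpl27a lie below 2.5 and all 12 others above 3.7, and Ctm wild types are the highest wild types for Rpl37 and Rps10.

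Around the group means, most of the genes varied together and little. Over the 18 arrays, the correlation of deviations from the own group mean had a median of 0.46 over the 903 pairs of genes, from -0.59 to 0.96, and 90.1% of pairs were above 0. For 35 genes the correlation with the mean of the others exceeded 0.5. Arrays share hybridisation and RMA, so these are descriptions. The median within-group SD was 0.10, against 0.16 over all genes. Rpl10a (0.06), Rplp0 (0.07) and Rpl7a (0.07), all of the large subunit, varied least, and the dim Rpl27a (0.27), Rpl12 (0.25) and Rpl14 (0.24) most. The 5 genes outside the family with the most similar deviations over the 18 arrays were Tspan31 (0.94), Commd1, Immp1l, Mettl3 and Fmc1 (0.93 each). None of these 5 passed in the 118Q line, where Tspan31 changed by 0.03 and Fmc1 by 0.44 (adjusted p = 0.054).

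Other probe sets allow a check on the choice of 1 per gene. The 43 genes have 95 probe sets of their own, of which 89 were above 0 in the 118Q line. Tested over all 34945 probe sets with 1 symbol, of which 0.266% rose, 9 of the 95 rose and 0 fell in limma. The 9 belong to Rps18 (2 probe sets), Rps27, Rpl41, Rps19, Rpl37a, Rps14, Rps7 and Rps10. In this fit 4 of the 8 probe sets chosen for the genes that rose kept their call. Among the 68 at a mean level of at least 5, 67 were above 0. Probe sets of 1 gene ranged most widely for Rps18 (6 probe sets, -0.18 to 0.63 in the 118Q line), Rps10 (-0.55 to 0.01 in the 11Q line) and Rpl41 (0.06 to 0.55 in the 118Q line). In each the low end came from a dim probe set, at a mean level of 0.68 for Rps18, 2.51 for Rps10 and 3.29 for Rpl41. For Rps29 (0.01 to 0.39) and Rps28 (0.14 to 0.41) in the 118Q line, the low end came from the brightest probe set. The 3 bright probe sets of Rps18, at 8.12 to 8.59, gave 0.29 to 0.63. Rpl37a (0.43 to 0.47) and Rps15 (0.47 to 0.50) had probe sets that lay close together. Ribosomal protein genes have many processed copies, and 13 of the chosen probe sets carry suffixes that mark possible shared matches, so single values may mix transcripts. Without these 13, 6 of 30 genes rose, with a median change of 0.30.

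Other genes of translation were read from lists in the same fit. Of 15 other TOP mRNAs, 5 were higher and 0 lower in the 118Q line at an unadjusted p below 0.05, and 1 rose: Eef1d, a subunit of the exchange factor that reloads elongation factor eEF1A (0.51, SE 0.10, adjusted p = 0.023). Fau, which encodes the small-subunit protein eS30 fused to a ubiquitin-like part, changed by 0.39 (adjusted p = 0.059) and the initiation factor subunit Eif3h by 0.32 (adjusted p = 0.064). Eef1a1, which brings tRNA to the ribosome and was chosen as an example, had a value of 0.02 (adjusted p = 0.96). The list median was 0.14. Of 15 elongation and release factors 1 rose, again Eef1d, and the median was 0.01. None of 36 initiation factors passed (6 higher and 2 lower at an unadjusted p below 0.05 in limma), with a median of 0.09, and Eif4g3 and Eif4g2 had values of -0.41 and -0.44 (adjusted p = 0.057 and 0.088).

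For the making of ribosomes, none of 64 assembly and nucleolar genes passed in the 118Q line (8 higher and 6 lower at an unadjusted p below 0.05 in limma), with a median of 0.03. None of 18 genes of RNA polymerase I transcription did either (5 higher and 0 lower), with a median of 0.11. A list of 25 genes was drawn up around the control of ribosomal protein mRNA translation, and not each of them is a known regulator of it. Of these 25, 1 fell: Rictor, which defines mTOR complex 2 (-0.56, SE 0.13, adjusted p = 0.036). Mtor (-0.32) and Larp1 (-0.31) had adjusted p-values of 0.11. None of 14 p53 targets and stress genes passed (0 in either direction at an unadjusted p below 0.05 in limma). Of 5 paralogues outside the family's rule none passed (3 higher and 0 lower), with Rps27l at 0.42 and Rpl22l1 at 0.36. In the Ctm line Nhp2, a protein of box H/ACA particles, fell (-0.43, SE 0.09, adjusted p = 0.029) and Tia1, which can bind TOP mRNAs, rose (0.72, SE 0.15, adjusted p = 0.031). At an unadjusted p below 0.05 in limma, 7 of 18 RNA polymerase I genes were lower there and 1 higher. Of 36 initiation factors, 8 were lower and 2 higher (7.29% and 4.72% of all genes). The 118Q change exceeded the Ctm change past the threshold in 3 of 18 RNA polymerase I genes, 3 of 15 other TOP genes and 3 of 36 initiation factors (1.84% of all genes). No gene of these lists went the other way, and 1 of the 25 did. In the 11Q line no gene of these lists passed.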

How the data were processed

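The deposited log2 values per probe set were made by the authors with RMA, per the submitters' processing notes, and no version is given. Base 2 was taken because the highest value, 12.2, read as a natural logarithm would mean 191530, more than the 65535 a scanner can record. The zero point of the scale is not given in the sources used here. Gene names came from the platform annotation. Of 45101 probe sets, 64 controls and 10092 with several symbols or none were left out of the gene tests. No filter on dim genes was applied.

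limma 3.58.1 in R 4.3.3 fitted 1 mean per group over 18 arrays (12 residual and 5.98 prior degrees of freedom). Its two-sided p-values were adjusted over 18193 genes by the Benjamini-Hochberg method, and the threshold was 0.05. The script was tested on simulated data. Precision is limited by 3 arrays a group.

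Members, lists and alternatives were chosen with earlier results of these data known. Named were, in each line, genes past the threshold (or the 5 of smallest p), the 3 highest and 3 lowest changes, and the 3 smallest p-values of each difference. Also named were extremes of spread and of probe-set disagreement, genes of special role, and up to 3 genes per list. Genes beside the threshold, Eef1a1, and the probe sets of Rps15 and Rpl37a were added as examples after their values were seen. Deviations of same-numbered arrays from their group means had correlations from -0.20 to 0.23. With 3 arrays a group these cannot decide whether numbers pair the arrays, and the labels do not say. The main fit treated the arrays as unpaired.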

Additional observations from a re-analysis of the deposited data

Results flagged for a closer look

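The 118Q and Ctm changes differed, by the test of the difference in limma, in 15 ribosomal protein genes. The 118Q change minus the Ctm change (log2) was 0.782 for Rps18, 0.715 for Rps27, 0.797 for Rpl41, 0.734 for Rps19 and 0.567 for Rps10. It was 0.586 for Rps26, 0.562 for Rpl19, 0.637 for Rps15, 0.621 for Rps2 and 0.497 for Rplp0. It was 0.756 for Rpl35, 0.663 for Rpsa, 0.63 for Rpl11, 0.528 for Rpl37a and 0.525 for Rpl27. For Rps10 and Rpl27 the Ctm wild types were also higher than the mean of both other wild-type groups (0.48 and 0.28).

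Probe sets that list several symbols were outside the gene tests. Of these, 110 list a ribosomal protein symbol, 42 symbols in all, of which 27 have no probe set of their own. In the 118Q line 8 of the 110 rose and 0 fell in limma, with p-values adjusted over all 35877 probe sets that carry a symbol, of which 0.334% rose. The change was above 0 in 101 of them, with a median of 0.29. In the Ctm line 0 passed, 13 were above 0 and the median was -0.12.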

How the results depend on the processing

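In the 118Q line at least 41 of 43 changes (37 of 37 where dim genes were dropped) stayed above 0 in all alternatives, but the count of 8 that rose did not hold. It was 4 with every probe set tested by itself, 19 without the dimmer 50% of genes, 18 with trend and robust settings, 31 with array weights, 2 with the RNA quality covariate, 0 with the arrays of the comparison alone, and 2 with a fold of at least 1.5 as well. Leaving out 1 array gave 0 to 25, and a median of 0.276 to 0.42 (0.30 with all arrays). Chosen after seeing the data were centring on the median gene (2), centring on the brighter 50% (4), both knock-in lines' 6 wild types as control (29) and a replicate block within each line (2). The planned replicate block gave 6. For 118Q minus Ctm (15) the same settings gave 7, 24, 25, 31, 2, 1 and 10, then 2 and 4 with centring. The count was 1 with the block within lines, 12 with the planned replicate block and 0 to 27 without 1 array. Without Ctm wild-type arrays 2 and 3, which leaves 1 Ctm wild type, the median difference was 0.454 (0.501 with all arrays). For 118Q minus 11Q (0), array weights gave 7 (0.412% of all genes) and leaving out 1 array 0 to 9 (0% to 0.5%). Against the 6 other wild types 6 genes passed in the Ctm line (9.72% of all genes). Centring on the median gene moved the Ctm median to -0.07, with 9 genes above 0 in place of 4, and turned the 11Q median from -0.06 to 0.00348, with 23 above 0 in place of 12. Over all genes, 280 passed in the 118Q line (1.54%), 1740 with array weights (9.56%) and 37 with the RNA quality covariate (0.203%). The share was 0.698% with every probe set tested by itself, 6.23% without the dimmer 50% and 2.33% with trend and robust settings. It was 0% with the arrays of the comparison alone, 8.68% against 6 wild types and 0.385% with the block within lines. With the planned replicate block it was 1.24%, and with centring 1.67% (median gene) and 1.73% (brighter 50%). With a fold of at least 1.5 as well, 147 of all genes passed. For 118Q minus Ctm the share was 1.74% with every probe set tested by itself, 11.7% without the dimmer 50% and 3.76% with trend and robust settings. Array weights gave 10.4%, the RNA quality covariate 0.368% and the arrays of the comparison alone 0.445%. Centring gave 2.57% and 2.55%, the block within lines 0.577% and the planned replicate block 2.38%. With the fold as well, 458 of all genes passed. Among the genes named in a comparison, the only ones followed singly, signs turned for 7 values: Rpl27 in 11Q (-0.167 with averaged probe sets, -0.0121 with the choroid plexus covariate), Rpl27a in 118Q (-0.0434 without wild type 1 to 0.241 without wild type 3, -0.0017 against 6 wild types), and Rps29 in 118Q (-0.0675 without wild type 1 to 0.0567 without wild type 3, -0.00331 without knock-in 3, -0.0563 and -0.0442 after centring). In Ctm they turned for Rpl27a (-0.0982 without wild type 1 to 0.174 without wild type 3, -0.00704 without knockout 1, -1.88 against 6 wild types, -0.00545 with the choroid plexus covariate), Rpl4 (-0.00109 without wild type 2, -0.0254 without knockout 1 to 0.0643 without knockout 3, -0.0265 against 6 wild types, -0.00933 without wild types 2 and 3), Rpl7 (-0.0174 with averaged probe sets, -0.0026 without knockout 3 to 0.0469 without knockout 2) and Rps10 (0.272 against 6 wild types). The causes were not tested. Signal over background limits the 8 dim probe sets.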
